A study of Mus musculus with 2931 samples.

Results

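Car4+ capillaries are the lung capillary endothelial cells (cells that line the smallest vessels) marked by carbonic anhydrase 4, and they were compared here between postnatal days P7 and P21 in mice kept in normal air. Members were the cells that carry the depositors' subtype label Car4+ capillaries at these ages. They numbered 200 of the 2931 endothelial cells of the series, with 42 in the P7 female mouse, 24 in the P7 male mouse, 57 in the P21 female mouse and 77 in the P21 male mouse. Cells came from distal lung, were sorted by surface gate and were sequenced one by one as full-length cDNA cut with the Tn5 transposase. The replicate was the mouse, with 1 female and 1 male mouse name per age. The labels name no strain and leave unsaid if such a name covers 1 animal or several pooled. Car4+ cells of 2 P1 mice in normal air and of 2 P7 mice after hyperoxia (breathing raised oxygen), 132 cells in all, entered the model to help estimate the spread, and no Car4+ cell was labelled at E18.5.

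Lung alveoli are lined by capillaries of more than one kind. The Car4+ cells, also called aerocytes, are large and thin, lie against the gas-exchange surface, and carry the endothelin receptor Ednrb and the peptide apelin (Apln). The Car4- capillaries carry the apelin receptor and are known as the general capillaries from which others are replenished. Between P7 and P21 the mouse lung divides its airspaces by septa and thins their walls.

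Reads were summed over the Car4+ cells of each mouse. The sums held 41626683 reads in the P7 female mouse, 7733119 in the P7 male mouse, 50183142 in the P21 female mouse and 53217630 in the P21 male mouse. Levels are given as CPM, the reads of a gene per 1000000 reads of the sum. The P7 male mouse stood apart in depth, with a median of 189004 reads per cell against 550359 to 975763 in the others. Its 6 cells of a sort gate named mesench gave 61.5% of its reads. That gate gave 13.7% of the reads of the P7 female mouse, 16.7% of the P21 female mouse and 57.1% of the P21 male mouse, and the other cells came from the CD31 gate. With every cell thinned to 50000 reads, the median number of genes per cell was 2221 and 2940 in the P7 mice and 2531 and 1479 in the P21 mice, so the ages overlapped. Among CD31-gate cells, the Car4+ label covered 11.6% (37 of 320 cells, exact 95% interval 8.27 to 15.6%) and 9.0% (18 of 200, 5.42 to 13.9%) at P7. At P21 it covered 15.6% (44 of 282, 11.6 to 20.4%) and 18.49% (44 of 238, 13.8 to 24.0%). Both P21 shares lay above both P7 shares, with overlapping intervals that cover counting error only, and with 2 mice against 2 an exact permutation test cannot go below p = 0.333.

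In cells selected by the Car4+ label, the genes that define these cells had similar levels at both ages. Car4 had 5092 and 9358 CPM in the female and the male mouse at P7 and 6077 and 9079 CPM at P21, a fitted log2 difference (P21 minus P7, as throughout) of -0.05 (SE 0.47). Ednrb had 2547 and 3021 CPM at P7 and 3112 and 3307 CPM at P21, a fitted log2 difference of 0.11 (SE 0.41). Apln had 642 and 454 CPM at P7 and 411 and 683 CPM at P21. The mice of the ages overlapped for Car4 and Apln, and for Ednrb the gap between the ages was smaller than the spread within P7. Kdr, the main receptor for the growth factor VEGF, had 2548 and 3017 CPM at P7 and 2292 and 2234 CPM at P21, a fitted log2 difference of -0.39 (SE 0.42). Of the other members of the identity list, Prx (683 and 863 against 549 and 386 CPM), which encodes the scaffold protein periaxin, and the transcription factor Tbx2 (473 and 501 against 409 and 212 CPM) were lower in both P21 mice, by less than 2-fold between the nearest mice. Fibin was at 888 and 619 CPM at P7 and 1038 and 1501 CPM at P21. None of the 14 members of the list passed the edgeR test or was separated as defined below, and with these standard errors differences near 2-fold would not have been detectable. The fitted difference of Car4 lay between -0.47 and 0.81 over the alternatives, the highest in CD31-gate cells alone. At 50000 reads per cell, Car4 had a read in 100% and 95.8% of P7 cells and in 100% and 98.7% of P21 cells. The cells were chosen by a label that names Car4, so its presence in all 4 mice is no independent result. The part of this choice in the similar levels of the identity genes was not tested.

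**Figure D1:**
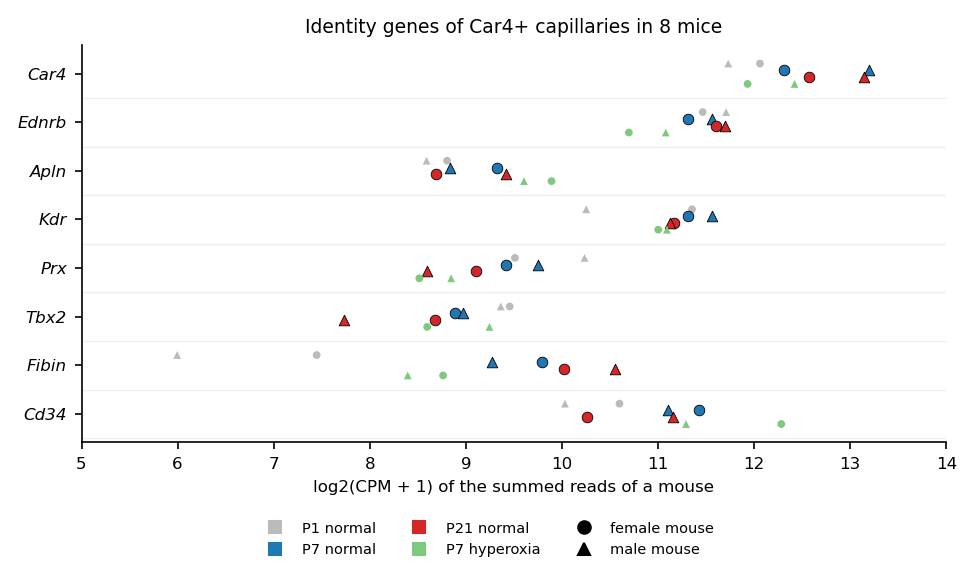
Levels of 8 identity genes in the summed Car4+ cells of 8 mice, as log2(CPM + 1) on the x axis, with colour for the group and marker shape for the sex. The P7 and P21 points of Car4, Ednrb, Apln and Kdr lie within less than 1 log2 unit of each other, between 411 and 9358 CPM over these genes.

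Over all genes, edgeR tested 12284 and called 1 (0.00814%) at an adjusted p under 0.05, while 644 had an unadjusted p under 0.05, 329 higher and 315 lower at P21. DESeq2 called 254 of them (2.07%), 127 in each direction. Since so few genes passed, the genes below are also described by separation: a gene was separated when the lower of the mice of one age, plus 1 CPM, was at least 2 times the higher of the mice of the other age, plus 1 CPM. By this description, which is no test, 723 genes (5.89%) were higher and 349 (2.84%) were lower at P21. In CD31-gate cells alone these counts were 507 and 641, so the split between the directions differed with the gate.

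The called gene was Gap43 (chromosome 16, 42248442 to 42340651, GRCm38), which encodes a membrane protein of growing nerve endings. Gene positions here are those of the GRCm38 annotation, matched by symbol, and the build behind the counts is unsure. It had 65.0 CPM in the P7 female mouse, 30.5 CPM in the P7 male mouse, 0.22 CPM in the P21 female mouse and 0.06 CPM in the P21 male mouse. It fell by 8.46 on the fitted log2 scale (SE 1.08, edgeR adjusted p = 0.0417), a 346-fold lower mean. The P1 mice had 202 and 546 CPM and the hyperoxia mice 105 and 310 CPM, so both P21 mice lay below the other 6. Few cells carried these reads: 9 of 42 cells in the P7 female mouse, 2 of 24 in the P7 male mouse, and 2 and 3 cells in the P21 mice. A single cell of the mesench gate gave 99.6% of the reads in the P7 male mouse. In the CD31-gate cells of the male mice, which shared a sequencing run, the gene had 0 CPM at P7 and 0.04 CPM at P21. The call was lost with CD31-gate cells alone (edgeR adjusted p = 0.452), with the 4 mice of P7 and P21 alone (0.644) and with every cell weighted equally in limma (0.116), with a lower value at P21 in each.

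Gap43 was also the single gene called when the age difference in Car4+ cells was set against that in the Car4- capillaries of the same mice (1 of 14711 genes, 0.0068%). In Car4- cells it had 10.6 and 5.64 CPM at P7 and 27.6 and 23.2 CPM at P21. The difference of the 2 age differences was -10.36 on the log2 scale (SE 0.97, edgeR adjusted p = 0.00976). Both classes had low levels, and the age order was opposite. For the 24 other genes of the plot of named genes, the lowest adjusted p of this test was 0.977. DESeq2 called 180 genes in this test.

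Heat shock genes, which encode chaperones that refold damaged proteins, were the list with the largest single differences. Hspa1a (chromosome 17, 34969190 to 34972156), the inducible Hsp70, had 0.02 and 0.00 CPM at P7 (female, then male) and 961 and 539 CPM at P21. That was 1 read against 76889, a ratio of 36700. The 95% counting interval, 6587 to 1450000, treats pooled reads as independent and leaves out the spread between cells and mice. Hspa1a had an edgeR adjusted p of 0.0564 and a DESeq2 adjusted p of 0.00206. Its near-identical neighbour Hspa1b had 0 reads at P7 and 78.7 and 53.4 CPM at P21, at least 1080-fold higher when P7 is set to a floor of 3 reads in all. That floor also treats reads as independent, and reads of the pair may have been divided between its members. Hspb1, the small chaperone Hsp27, had 49.7 and 10.99 CPM at P7 and 374 and 548 CPM at P21, a 15.2-fold higher mean, and a processed copy of it is listed in the same table. The co-chaperone Dnajb1 had 233 and 42.8 CPM at P7 and 539 and 664 CPM at P21. Hsph1 (13.1 and 11.3 against 59.8 and 82.6 CPM) and Hspa4l (1.83 and 1.04 against 16 and 68 CPM), of the Hsp110 family, completed the 6 separated members of 16 tested (5.89% of all genes were higher), and none was lower. None of the 16 passed edgeR, and DESeq2 called 3, all higher (2.07% of all genes in both directions). Hspa1a passed edgeR with sex as a block (adjusted p = 0.0206), with RLE scaling (0.0476), CD31-gate cells (0.00354) and thinned cells (2.96e-06). It also passed with normal-air mice (0.0478) and the 4 mice of P7 and P21 alone (0.00342). Hspa1a did not pass with every cell weighted equally in limma (adjusted p = 0.0795). Nor did it pass edgeR when either P7 mouse was left out, which leaves 1 mouse at that age. Its level was higher at P21 in each of these settings. The median log2 ratio of CPM + 1 was 1.19 over the list and 0.07 over all tested genes. In the male CD31-gate cells of the shared run it was 1.22, against -0.14 over all genes. In the female mice of the shared run, with different gates at the ages, it was 0.18 with 8 of 16 members higher, against -0.27 over all genes. The constitutive Hspa8 overlapped between the ages, with 823 and 335 CPM at P7 and 608 and 1103 CPM at P21.

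More cells had a read at P21. At 50000 reads per cell, Hspa1a had a read in 49.1% and 54.5% of the P21 cells and in 0 of 66 P7 cells. For counting error alone, over the cells of both mice, that count allows a share of cells with a read at this depth of up to 4.55%, and without thinning 1 P7 female cell had a read. Hspb1 had a read in 33.3% and 20.8% of P7 cells and in 77.2% and 74.0% of P21 cells. The top cell gave 17.7% and 19.9% of the Hspa1a reads in the P21 mice. The P1 mice had 4.08 and 0 CPM of Hspa1a and the hyperoxia mice 0 CPM, so the gene was near 0 outside P21. Hspb1 did not follow that pattern, with 116 and 344 CPM in the P1 mice. In Car4- cells Hspa1a had 1.11 and 0.07 CPM at P7 and 478 and 708 CPM at P21. Immediate early genes, which like heat shock genes are known to respond to tissue dissociation, had a median log2 ratio of 0.86 in the same sums, and their part in this result was not tested.

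**Figure D2:**
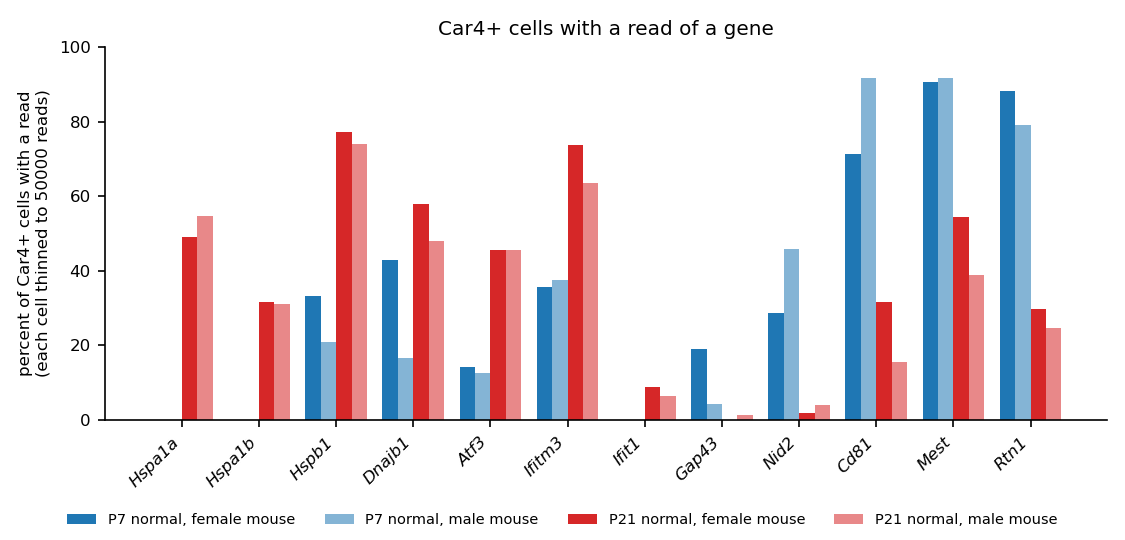
Percent of Car4+ cells with at least 1 read of a gene, each cell thinned to 50000 reads, for the 4 mice of P7 and P21. Hspa1a had a read in 49.1% and 54.5% of P21 cells and in none of the P7 cells, while Cd81, Mest and Rtn1 had a read in fewer cells of both P21 mice.

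Promoters of 3 separated heat shock genes, 2 separated interferon-stimulated genes and the MHC gene B2m are shown because they hold the core of a known control element, and they were chosen for holding it. The separated Hsph1, Dnajb1, Hspa4l, Ifitm3 and Usp18 are not among the genes with a match, while Dnaja1, Hspd1 and Hspe1 hold the heat shock core without being separated. Promoters were found by symbol for 12 of the 16 heat shock, 14 of the 16 interferon-stimulated and 12 of the 14 MHC class I genes. A gene without a match may thus have had no promoter to search. Each stretch is the 250 bases before the annotated start in RefSeq, build GRCm38.p6, read on the gene's strand, and capitals mark matches, both strands searched. For Hspa1a (chr17:34972157-34972406, minus strand), Hspa1b (chr17:34959239-34959488, minus strand) and Hspb1 (chr5:135887669-135887918, plus strand) the capitals mark GAANNTTC, the core of the heat shock element, which reads the same on both strands:
Hspa1a: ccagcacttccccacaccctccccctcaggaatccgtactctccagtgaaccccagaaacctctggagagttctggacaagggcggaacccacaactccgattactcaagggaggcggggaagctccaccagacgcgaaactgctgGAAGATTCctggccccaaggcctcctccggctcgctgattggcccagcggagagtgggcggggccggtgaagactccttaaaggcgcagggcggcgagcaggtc
Hspa1b: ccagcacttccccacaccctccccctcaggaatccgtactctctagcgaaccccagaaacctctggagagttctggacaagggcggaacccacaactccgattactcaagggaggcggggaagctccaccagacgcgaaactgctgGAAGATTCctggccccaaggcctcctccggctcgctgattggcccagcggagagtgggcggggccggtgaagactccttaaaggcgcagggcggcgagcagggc
Hspb1: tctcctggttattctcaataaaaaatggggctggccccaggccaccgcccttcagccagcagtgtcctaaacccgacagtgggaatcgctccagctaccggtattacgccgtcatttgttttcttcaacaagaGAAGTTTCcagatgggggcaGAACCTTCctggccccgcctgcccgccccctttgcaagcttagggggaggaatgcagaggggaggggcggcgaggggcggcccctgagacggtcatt
Hspa1a and Hspa1b differ at 3 of these 250 bases, and their match starts 104 bases before the gene start. The matches of Hspb1 start 117 and 97 bases before it. This core was in 6.69% of the 32851 promoters of the table and in 6 of the 17 promoters (35.3%) of the 12 heat shock genes found there by symbol.

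For Ifit1 (chr19:34640639-34640888, plus strand), Ifit3 (chr19:34583279-34583528, plus strand) and B2m (chr2:122147437-122147686, plus strand) the capitals mark GAAA, any pair of bases and GAAA again, or the reverse complement (TTTC, any pair of bases and TTTC), the core of the interferon-stimulated response element:
Ifit1: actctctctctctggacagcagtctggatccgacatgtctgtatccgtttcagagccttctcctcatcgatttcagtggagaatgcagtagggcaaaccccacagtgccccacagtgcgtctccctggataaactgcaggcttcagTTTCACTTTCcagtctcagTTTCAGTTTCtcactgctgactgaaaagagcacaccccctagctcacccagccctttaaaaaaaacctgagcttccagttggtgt
Ifit3: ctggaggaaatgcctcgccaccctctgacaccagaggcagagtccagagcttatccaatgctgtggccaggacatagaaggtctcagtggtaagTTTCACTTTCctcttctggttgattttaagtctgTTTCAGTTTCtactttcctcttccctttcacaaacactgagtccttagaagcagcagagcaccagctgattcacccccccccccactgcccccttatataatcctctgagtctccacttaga
B2m: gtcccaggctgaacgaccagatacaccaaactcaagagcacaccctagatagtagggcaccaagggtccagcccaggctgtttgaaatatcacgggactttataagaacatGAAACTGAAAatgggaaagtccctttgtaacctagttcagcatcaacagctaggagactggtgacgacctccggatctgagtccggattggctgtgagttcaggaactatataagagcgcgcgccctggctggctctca
It was in 2.98% of all promoters of the table, in 7 of the 17 promoters (41.2%) of the interferon-stimulated genes found there and in 3 of the 13 (23.1%) of the MHC class I genes. Bst2, Gbp2, Isg15, Rsad2, Stat2, H2-T22 and H2-T23 hold this interferon core without being separated. The separated H2-K1, H2-Q6, Tap1, Tapbp and Nlrc5 are not among the genes with it, though some of them may have had no promoter to search. A match is a description of the letters and shows no binding.

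Among interferon-stimulated genes, Ifitm3, a membrane protein that blocks virus entry, had 81.4 and 102 CPM at P7 and 676 and 649 CPM at P21, a fitted log2 difference of 2.75 (SE 0.56, edgeR adjusted p = 0.524). Both P21 mice lay above the P1 mice (323 and 145 CPM) and the hyperoxia mice (213 and 313 CPM). The age order was the same in Car4- cells, with 788 and 698 CPM of Ifitm3 at P7 and 2660 and 3142 CPM at P21. Ifit1 and Ifit3, which hold back viral RNA and its signalling, had 0 reads in both P7 mice. At P21 they had 25.7 and 29.7 CPM (Ifit1) and 40.6 and 28.4 CPM (Ifit3). Those reads came from few cells, 12 cells with a read of Ifit1 and 10 of Ifit3 over both P21 mice, so no lower limit of the fold is given. Usp18, a brake on interferon signalling, had 3.41 and 9.31 CPM at P7 and 51.4 and 80.2 CPM at P21. The transcription factor Irf1 had 420 and 208 CPM at P7 and 847 and 816 CPM at P21, just under the separation. Thus 4 of 16 members were separated, all higher (5.89% of all genes), none passed edgeR, and DESeq2 called 4 (2.07% of all genes). The list's median log2 ratio of CPM + 1 was 1.38, 1.13 in the male CD31-gate cells of the shared run and 1.455 in the female mice of theirs. Ifi213, an interferon-inducible gene outside the list, had 0.07 and 0.39 CPM at P7 and 113 and 80.6 CPM at P21.

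MHC class I genes build the surface complex that shows peptides to T cells. B2m, its light chain, had 1762 and 1335 CPM at P7 and 3941 and 4874 CPM at P21, a fitted log2 difference of 1.46 (SE 0.44, edgeR adjusted p = 0.858). Car4- cells of the same mice had 1421 and 1451 CPM of B2m at P7 and 3639 and 4428 CPM at P21. H2-K1, a heavy chain, had 657 and 203 CPM at P7 and 1326 and 1473 CPM at P21. The peptide-loading factor Tapbp had 153 and 125 CPM at P7 and 359 and 344 CPM at P21, and the peptide transporter Tap1 had 26.2 and 25.4 CPM at P7 and 137 and 55.7 CPM at P21. With H2-Q6 (3.29 and 0.78 against 43.4 and 17.6 CPM) and Nlrc5 (0 reads against 2.61 and 1.02 CPM), a regulator of the class, 6 of 14 members were separated and higher (5.89% of all genes), none was lower, and none passed edgeR or DESeq2. H2-D1, another heavy chain, had 2024 and 860 CPM at P7 and 3030 and 3115 CPM at P21 and was not separated. Reads of H2 genes may be divided between near-identical copies. The list depended on the treatment of cells. With every cell thinned to 50000 reads 1 of 13 members was separated, H2-Q6, a share near that of all genes in this setting (4.84%). In the male CD31-gate cells of the shared run the median log2 ratio was 0.21, against 1.41 in the sums and 0.83 in the female mice of the shared run.

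Immediate early genes, transcription factors and regulators switched on within minutes of a stimulus, were led by Atf3. It had 25.7 and 225 CPM at P7 and 988 and 1462 CPM at P21, a fitted log2 difference of 3.09 (SE 0.86, edgeR adjusted p = 0.858). Car4- cells of the same mice had 31.4 and 71.0 CPM of Atf3 at P7 and 445 and 960 CPM at P21. Gadd45b, a stress-induced regulator, had 46.3 and 19.01 CPM at P7 and 224 and 170 CPM at P21. These were the separated members, 2 of 23 tested (none lower), a share near that of all genes (5.89%). Egr1 (659 and 347 against 1411 and 1210 CPM) and the growth brake Btg2 (458 and 282 against 1179 and 794 CPM) were higher in both P21 mice without reaching the separation. The list's median log2 ratio was 0.86 in the sums and -0.10 in the male CD31-gate cells of the shared run, so the sign differed, and 0.74 in the female mice of their shared run.

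Other named genes higher at P21 had separate roles. Fgf1, a growth factor, had 97.9 and 65.0 CPM at P7 and 434 and 601 CPM at P21, a fitted log2 difference of 2.64 (SE 0.55, edgeR adjusted p = 0.524). Neat1, the RNA scaffold of nuclear paraspeckles, had 1.42 and 1.81 CPM at P7 and 93.0 and 131 CPM at P21, with 100 CPM in the P1 male mouse. Atp2a3, a calcium pump of the endoplasmic reticulum, had 9.03 and 4.27 CPM at P7 and 124 and 53.6 CPM at P21. Fmnl2, an actin-assembly factor, had 21.1 and 10.99 CPM at P7 and 65.6 and 139 CPM at P21, and the P1 mice (68.1 and 91.0 CPM) lay within the P21 range. The 12 named higher genes had edgeR adjusted p between 0.0564 and 0.858, and DESeq2 called 11 of them (2.07% of all genes in both directions). They were chosen by small edgeR p in the same sums, so the DESeq2 count follows largely from the choice and is no independent support.

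**Figure D3:**
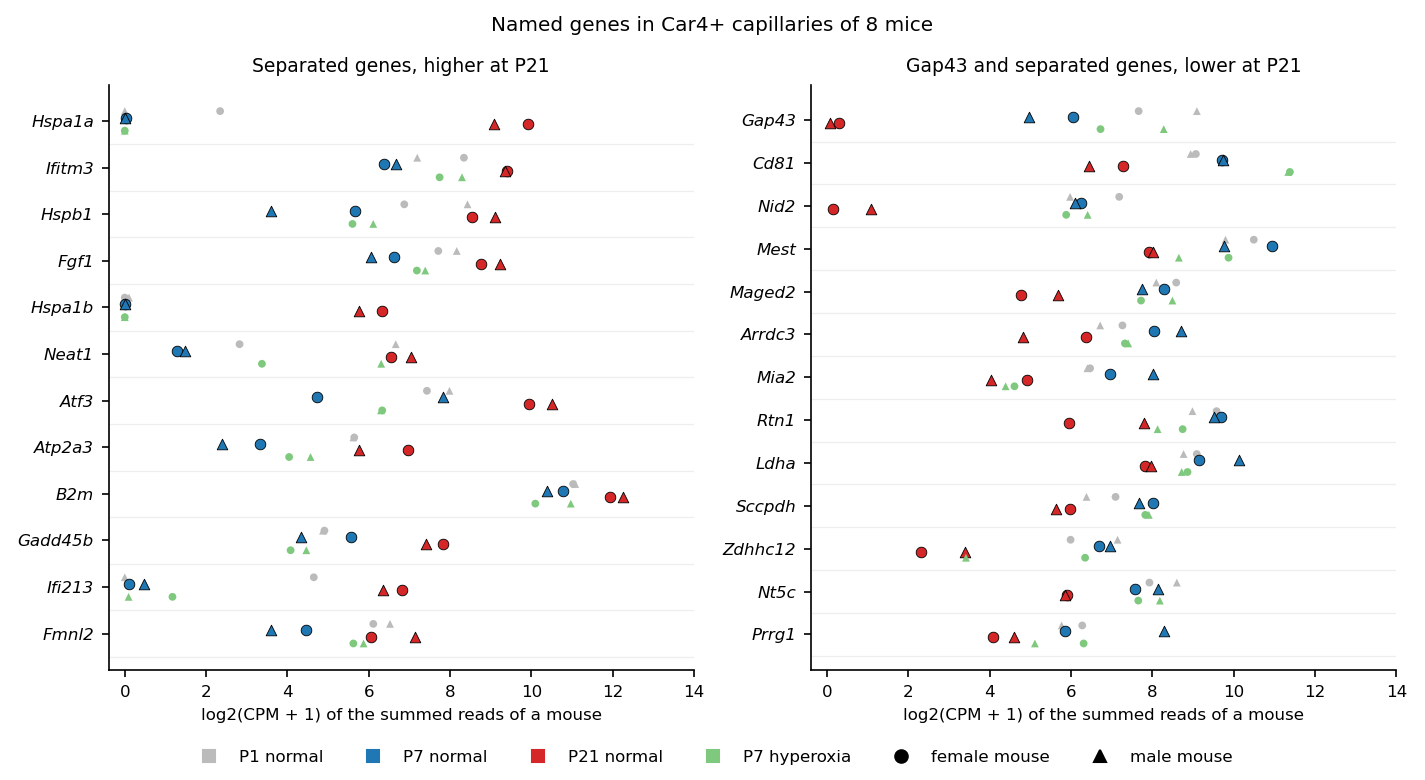
Levels of the 25 named genes in the summed Car4+ cells of 8 mice, as log2(CPM + 1) on the x axis, with colour for the group and marker shape for the sex. The P21 mice lie to the right of the P7 mice in the left panel and to the left of them in the right panel, as the rule that chose the genes requires, apart from Gap43, which was chosen by the edgeR test.

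Of the genes lower at P21 besides Gap43, Cd81 (chromosome 7, 143052739 to 143067934), a tetraspanin that organises membrane proteins, had the smallest edgeR p. It had 844 and 848 CPM at P7 and 155 and 86.4 CPM at P21, a 7.0-fold lower mean and a fitted log2 difference of -2.91 (SE 0.46, edgeR adjusted p = 0.116). With every cell weighted equally, limma called it. Its P7 mice lay within 1% of each other, the P1 mice had 537 and 491 CPM and the hyperoxia mice 2669 and 2595 CPM, so both P21 mice were below the other 6. Reads of Cd81 were found in 71.4% and 91.7% of P7 cells and in 31.6% and 15.6% of P21 cells at 50000 reads per cell. In Car4- cells the gene had 1318 and 1401 CPM at P7 and 279 and 643 CPM at P21.

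Nid2 (chromosome 14, 19751265 to 19811787), which encodes the basement membrane linker nidogen 2, had 75.4 and 67.1 CPM at P7 and 0.10 and 1.13 CPM at P21, a 116-fold lower mean (edgeR adjusted p = 0.394). Mest (chromosome 6, 30723547 to 30748465), an imprinted gene expressed from the paternal copy in growing tissue, had 1964 and 873 CPM at P7 and 241 and 259 CPM at P21 (edgeR adjusted p = 0.524). Both genes were lower in both P21 mice than in the 6 other mice. Maged2, of the MAGE family, had 312 and 214 CPM at P7 and 26.2 and 50.1 CPM at P21. Rtn1, a reticulon that shapes the endoplasmic reticulum, had 819 and 735 CPM at P7 and 60.4 and 220 CPM at P21. It set the classes apart in level, with 42.4 and 106 CPM in Car4- cells at P7 and 12.3 and 2.63 CPM there at P21. The age order was thus the same in Car4- cells. Rtn1 was read in 88.1% and 79.2% of the P7 cells and in 29.8% and 24.7% of the P21 cells.

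Ldha, the lactate dehydrogenase of glycolysis, had 569 and 1120 CPM at P7 and 225 and 248 CPM at P21. Arrdc3, an arrestin-like adaptor of receptor traffic, had 264 and 420 CPM at P7 and 81.6 and 27.2 CPM at P21. Mia2, which helps export large cargo from the endoplasmic reticulum, had 124 and 256 CPM at P7 and 29.0 and 15.2 CPM at P21, and the hyperoxia mice (23.4 and 19.98 CPM) lay at the P21 level. A single mesench-gate cell held 90.5% of the Mia2 reads of the P7 male mouse, and in male CD31-gate cells Mia2 had 48.4 CPM at P7 and 10.1 CPM at P21. The 4 other genes were Sccpdh (258 and 201 against 61.7 and 48.7 CPM), the palmitoyltransferase Zdhhc12 (101 and 124 against 3.96 and 9.51 CPM), the nucleotidase Nt5c (188 and 279 against 58.5 and 57.2 CPM) and Prrg1 (56.7 and 309 against 15.8 and 23.1 CPM). For Prrg1 the P7 mice differed more than 5-fold from each other, and 1 cell held 91.4% of the reads of the male mouse. The 12 named lower genes had edgeR adjusted p between 0.116 and 0.858, and DESeq2 called all 12 (2.07% of all genes in both directions). As for the higher genes, this count follows largely from the choice by small edgeR p in the same sums.

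Gate and run were checked for the 24 named genes, since the rule had asked for a 2-fold difference in the CD31-gate cells of both sexes. The mesench-gate cells of the male mice, of 1 run, were not used by the rule but are part of the sums, with 6 cells at P7 and 33 at P21. There, 12 of the 12 higher genes and 11 of the 12 lower genes differed by at least 2-fold in the same direction, the exception being Maged2 at 157 and 86.0 CPM. The female mice shared a run across gates (13 mesench-gate cells at P21 and 37 CD31-gate cells at P7), where 11 of the 12 higher and 12 of the 12 lower genes did, the exception being B2m at 1834 and 2684 CPM. These values describe the same mice and are no independent support.

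**Figure D4:**
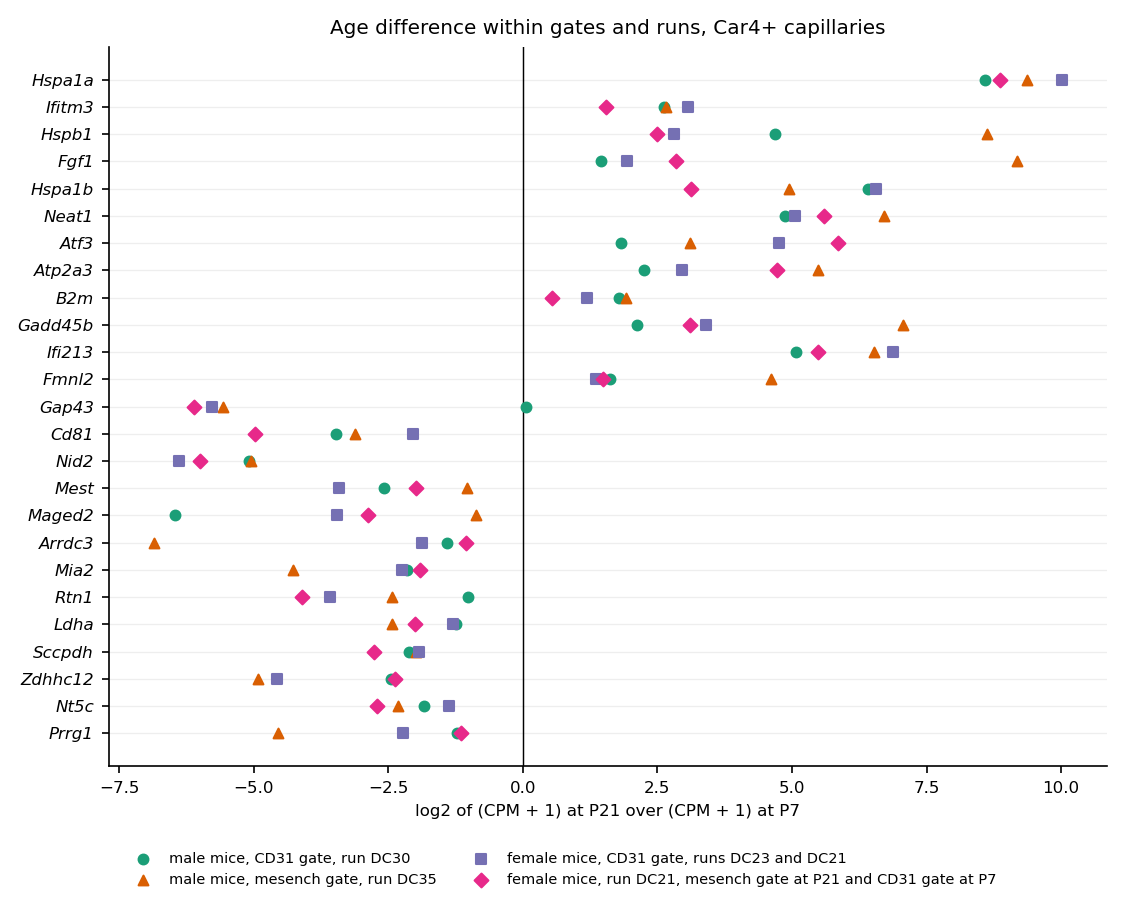
Age difference of the 25 named genes within gates and runs, as log2 of (CPM + 1) at P21 over (CPM + 1) at P7 on the x axis, 1 mouse per age in each pairing, without a test. All points of the 12 higher genes lie above 0 and all points of the 12 lower genes below 0, while Gap43 lies at 0.06 in the male CD31-gate cells, which had no read at P7.

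Growth-cone and neurite cytoskeleton genes shape the tip of a growing cell process. Of 19 tested, 4 were separated and lower at P21 (2.84% of all genes were lower), none higher. Besides Gap43 these were Tmsb10, which binds actin monomers (244 and 391 against 115 and 81.9 CPM), the actin-binding Dbn1 (55.9 and 75.4 against 3.81 and 9.51 CPM) and the tubulin Tubb2b (12.4 and 1.94 against 0.18 and 0.08 CPM). The list's median log2 ratio was -0.47, and in CD31-gate cells alone 2 of 19 were separated, Dbn1 and Tubb2b, where 5.31% of all genes were lower. Clock genes, the transcription loop of daily rhythm, were separated in both directions, 2 of 16 higher and 4 lower (5.89% and 2.84% of all genes). Npas2 (0.02 and 0 against 7.85 and 3.31 CPM) and Arntl (0.02 and 3.36 against 9.19 and 11.6 CPM), activators of the loop, were higher. Cry1 (49.5 and 11.9 against 1.87 and 4.40 CPM), Nr1d1 (13.02 and 4.53 against 0.08 and 1.47 CPM), Nr1d2 (14.01 and 26.8 against 0.06 and 3.19 CPM), which are repressors, and the output factor Tef (12.9 and 10.5 against 2.61 and 0.06 CPM) were lower. Dbp, another member of the list, had 0 reads at P7 and 5.72 and 0.77 CPM at P21 and was not separated. In the male CD31-gate cells of the shared run Cry1 was higher at P21, at 3.03 and 4.21 CPM. With 5 CPM added, 0 of 16 were higher and 2 lower (3.26% and 1.66% of all genes). With thinned cells, 0 of 13 were higher and 3 lower (4.84% and 3.91%). The labels give no time of day, so age and time of day cannot be told apart, and these levels are low. A single cell held 99.5% of the Npas2 reads of the P21 female mouse and 99.6% of the Nr1d1 reads of the P7 female mouse.

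**Figure D5:**
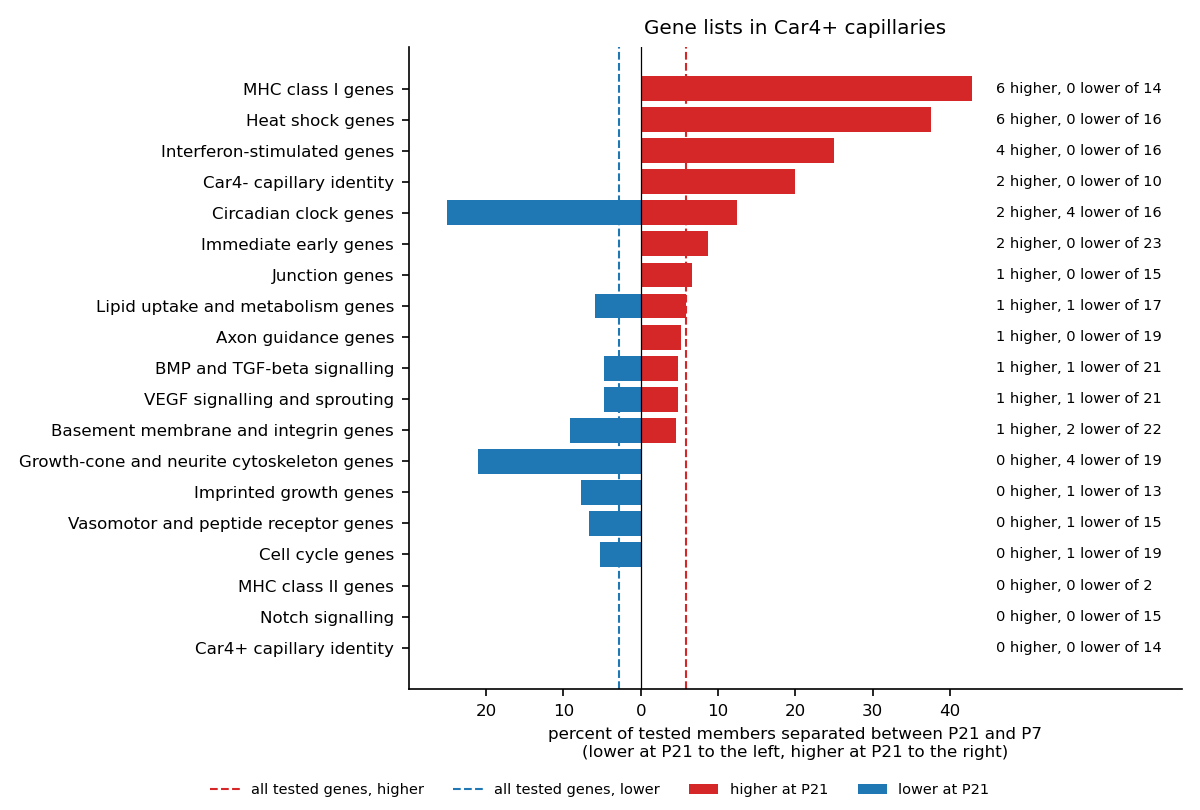
Percent of the tested members of 19 gene lists that were separated between the ages, lower at P21 to the left and higher to the right, with counts at the side. Dashed lines are the shares of all tested genes, 5.89% higher and 2.84% lower. MHC class I genes (6 of 14) and heat shock genes (6 of 16) reach furthest to the right.

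Signalling lists held few separated members, near the shares of all genes (5.89% higher and 2.84% lower). In VEGF signalling and sprouting, 1 of 21 was higher, the receptor Tek (33.5 and 40.1 against 154 and 85.2 CPM), and 1 lower, the transcription factor Sox18 (475 and 627 against 212 and 195 CPM). The related factor Sox17 was lower in both P21 mice without separation (67.4 and 207 against 36.3 and 8.21 CPM). In Notch signalling 0 of 15 were separated, and the ligand Dll4 (295 and 69.96 against 107 and 104 CPM) and the receptor Notch1 (327 and 357 against 237 and 257 CPM) differed by less than the separation. In BMP and TGF-beta signalling 1 of 21 was higher, the ligand Bmp6 (1.83 and 0 against 33.9 and 15.7 CPM), and 1 lower, the receptor Tgfbr2 (392 and 469 against 163 and 152 CPM). Bmpr2, the BMP receptor mutated in inherited pulmonary hypertension, had 459 and 395 CPM at P7 and 908 and 796 CPM at P21. Among basement membrane and integrin genes, 1 of 22 was higher, the collagen receptor subunit Itga1 (45.5 and 83.9 against 283 and 197 CPM), and 2 lower, Nid2 and the laminin chain Lama5 (31.95 and 36.5 against 12.02 and 0.02 CPM). Sparc, a matrix protein, had 1689 and 2838 CPM at P7 and 1157 and 938 CPM at P21.

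For the list counts that follow, the shares of all tested genes were 5.89% separated and higher and 2.84% separated and lower at P21. Of the Car4- identity genes, 2 of 10 were separated and higher at P21, both at low levels: the receptor phosphatase Ptprb (24.6 and 30.9 against 219 and 77.2 CPM) and the hormone receptor Glp1r (0 reads against 8.489 and 7.498 CPM, from 7 cells). The list's median log2 ratio was 1.11 in the sums, against 0.07 over all genes, with 9 of 10 means higher at P21. In the male CD31-gate cells of the shared run it was -0.11, against -0.14 over all genes. In the female mice of their shared run it was -0.003, against -0.27 over all genes. Plvap, the diaphragm protein of fenestrae, was carried by 1 of the P21 mice, with 5.14 and 0 CPM at P7 and 158 and 8.94 CPM at P21. Among vasomotor genes 0 of 15 were higher and 1 lower, the receptor partner Ramp3 (22.5 and 89.1 against 10.1 and 2.499 CPM). A single cell held 99.0% of its reads in the P7 male mouse, and in male CD31-gate cells it was higher at P21, at 2.35 and 5.83 CPM. Calcrl, the receptor it pairs with, had 1588 and 1401 CPM at P7 and 2696 and 4285 CPM at P21. In lipid genes 1 of 17 was higher, Angptl4 (0 and 0.13 against 6.84 and 4.10 CPM, from 4 cells and 1 cell), and 1 lower, the desaturase Scd2 (87.1 and 71.2 against 20.7 and 30.1 CPM), and the fatty acid transporter Cd36 had 1643 and 930 CPM at P7 and 1692 and 3617 CPM at P21. Of junction genes 1 of 15 was higher, the connexin Gja4, whose 29.6 and 7.42 CPM at P21 came from 7 cells and 1 cell. Of axon guidance genes 1 of 19 was higher, the receptor Epha4 (15.7 and 9.05 against 97.1 and 130 CPM). Cell cycle genes had 0 of 19 higher and 1 lower, the replication helicase subunit Mcm3 (9.35 and 7.89 against 1.89 and 1.75 CPM), for which 1 cell held 99.0% of the reads of the P7 female mouse. Separated among imprinted genes was 1 of 13, Mest, which was lower, and among MHC class II genes 0 of 2. Outside the growth-cone list, with Gap43, no member of any list passed edgeR.

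Markers of other cell types were summed in the same cells. Separated members are counted too, beside 5.89% of all tested genes higher and 2.84% lower at P21. Pan-endothelial markers summed to 19040 and 19450 CPM at P7 and 20590 and 17390 CPM at P21. Fibroblast markers summed to 3.72 and 313 CPM at P7 and 202 and 39.2 CPM at P21, with Dcn at 0 in all 4 mice and 1 of 5 tested members separated, Col3a1 (0.05 and 0.13 against 16.5 and 21.5 CPM). Alveolar type 2 markers summed to 34.2 and 376 CPM at P7 and 333 and 158 CPM at P21, with Sftpb at 0 and 1 of 5 tested members separated, Lyz2 (0 reads against 7.87 and 32.4 CPM). Lymphatic markers summed to 593 and 1342 CPM at P7 and 441 and 396 CPM at P21, with Ccl21a at 0, Prox1 at 0 to 0.13 CPM and 1 of 4 tested members separated and lower, Mmrn1 (24.8 and 119 against 1.24 and 0.04 CPM), with 99.8% of its P7 male reads in 1 cell. Alveolar type 1 markers were higher in both P21 mice (278 and 613 against 761 and 656 CPM), with 1 of 8 separated, Hopx (38.1 and 24.4 against 172 and 99.5 CPM). Arterial markers overlapped in sum (196 and 84.3 against 126 and 136 CPM), but 2 of 5 tested members were separated and higher, Gja4 and Cxcl12 (0 reads against 3.91 and 5.02 CPM). Pericyte and smooth muscle markers summed to 8.07 and 9.70 CPM at P7 and 26.3 and 5.00 CPM at P21, with Rgs5 separated (0.02 and 0 against 6.02 and 1.90 CPM). Venous markers summed to 31.01 and 6.34 CPM at P7 and 20.03 and 0.85 CPM at P21, with 1 of 2 tested members lower, and erythroid markers to at most 30.95 CPM in any of the 4 mice. Leukocyte markers summed to at most 9.43 CPM. The part of these levels in the results was not tested.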

How the data were processed

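Values are the deposited counts, whole numbers of reads of each gene in each cell. Per the submitters' processing notes the authors used STAR 2.5.2b and HTSeq 0.10, and these notes name the human build GRCh38 for mouse cells, so the build behind the counts is unsure and gene positions are those of GENCODE M21 on GRCm38 by symbol. No molecular identifiers were used, so intervals and floors cover counting error only. No cell name was shared between mice (0 shared), 0 columns belonged to other samples, and doublets were not called again.

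Reads of Car4+ cells were summed per mouse for 8 mice in 4 groups and tested with edgeR 4.0.16 (TMM, filterByExpr, quasi-likelihood F test, group only, R 4.3.3), adjusted after Benjamini and Hochberg over all genes tested. The model was tested on simulated data. The age difference in Car4+ against Car4- cells was an interaction term with the mouse as a term. P-values measure the spread between these mice, which may be technical. Named genes were every called gene and, per direction, the 12 with the smallest p among separated genes with a mean of at least 50 CPM at the higher age, a read in 25% of the cells of each mouse of the higher age, and a 2-fold difference in CD31-gate cells of each sex, leaving out predicted, ribosomal, mitochondrial and pseudogene symbols. From each list up to 4 genes of smallest p, and always Car4, Ednrb, Apln and Kdr, were named too. Hsph1, Hspa4l, Hspa8, H2-Q6, Tap1, Nlrc5, Usp18, Arntl, Nr1d1, Nr1d2, Tef, Tek, Bmp6, Itga1, Lama5 and the marker genes were named after their values were seen. The members and lists were chosen with earlier results of these data known. Alternatives were DESeq2 1.42.0, limma 3.58.1 on log2 of the mean CPM over cells + 1, RLE scaling, other filters, CD31-gate cells alone, thinned cells, sex as a block, fewer mice and other separation limits. Promoters came from RefSeq (GRCm38.p6).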

Additional observations from a re-analysis of the deposited data

Results flagged for a closer look

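Gap43 was singled out because its age difference in Car4+ capillaries differed from that in Car4- capillaries of the same mice in the edgeR test of the difference itself, by -10.36 on the log2 scale (adjusted p = 0.00976). It was 65.0 and 30.5 CPM at P7 and 0.22 and 0.06 CPM at P21 in Car4+ cells, and 10.6 and 5.64 CPM at P7 and 27.6 and 23.2 CPM at P21 in Car4- cells. In the male mouse at P7, 1 Car4+ cell of the mesench gate held 99.6% of its reads. The call of the difference was lost (edgeR or limma adjusted p) when a single mouse was left out, namely the P7 female (0.0618), P7 male (0.138), P21 male (0.115) or P1 male mouse (0.0523), with CD31-gate cells alone (1.0), with the 4 mice of P7 and P21 alone (0.719) and with limma (0.153). All groups held 2 mice, so the search for a sample far from the others of its group could not be made.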

How the results depend on the processing

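Each age had 2 mice, and the number of genes called depended on the processing. Against 1 gene called by edgeR, 254 were called with DESeq2, 2 with RLE scaling, 60 with every gene that had a read, 2 with CD31-gate cells alone (Ctsw and Hspa1a), 15 with thinned cells, 2 with normal-air mice alone, 1 with limma (Cd81), 1 with the 4 mice of P7 and P21 (Hspa1a) and 2 to 18 when 1 mouse was left out, the most without the P21 female mouse. With sex as a block (replicate block) 2 genes were called, Gap43 (adjusted p = 0.0236) and Hspa1a (0.0206), and the mice share no replicate number, so this pairs them by sex alone. For the difference between Car4+ and Car4- cells, against 1 call, DESeq2 gave 180, thinned cells 18, and CD31-gate cells, limma and the 4 mice of P7 and P21 gave 0 each, with 0 to 2 when 1 mouse was left out. Separated genes, 723 higher and 349 lower, numbered 401 and 204 with 5 CPM added, 1187 and 644 at 1.5-fold, 385 and 157 at 3-fold, and 507 and 641 in CD31-gate cells. Leaving out 1 mouse gave 1303 to 2578 higher and 736 to 1564 lower, and CD31-gate cells without the P7 male mouse (added after seeing the data) gave 1200 and 1750, since fewer mice make separation easier. Of 1608 alternatives for 95 single genes 30 changed direction. None of these was in the 12 higher or 12 lower named genes, which the rule that chose them largely fixed. That rule asked for separation in these mice and for a 2-fold difference in the CD31-gate cells of both sexes. The CD31-gate male pair of Gap43 gave 0.06. Log2 differences changed sign for Car4 (0.02 with every gene, 0.81 CD31 gate, 0.43 thinned, 0.33 limma, 0.00 with the sex block, 0.08 normal air, -0.47 to 0.71 leaving out a mouse), Ednrb (-0.22 CD31 gate, -0.05 limma, -0.09 to 0.45 leaving out a mouse), Apln (0.37 CD31 gate, 0.52 thinned, 0.35 limma, 0.06 normal air, -0.56 to 0.38 leaving out a mouse), Kdr (0.14 CD31 gate), Cd93 (0.52 CD31 gate, 0.03 limma, -1.31 to 1.20 leaving out a mouse), Hes1 (0.01 CD31 gate), Dll4 (-1.37 to 0.41 leaving out a mouse), Lamb1 (-6.61 to 0.13 leaving out a mouse), Hspa8 (-0.03 to 1.20 leaving out a mouse) and the fibroblast marker Mfap4 (12.14 CD31 gate, 0.79 thinned, 2.41 limma, -3.28 to 8.67 leaving out a mouse). The cause was not tested.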
